A study of Rattus norvegicus with 6 samples.

Results

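The choroid plexus genes Ttr, Folr1, Kl, Clic6, Aqp1, Enpp2 and Prlr were followed library by library; they are 7 of the 30498 genes in the tables and were taken by gene name. The samples were brains of newborn rats (Rattus norvegicus), delivered by Caesarean section and dissected at once, with 3 libraries of polyadenylated RNA from pups of control mothers and 3 from pups of calorie-restricted mothers (CR), which model fetal growth restriction. All 6 libraries are labelled as whole brain. The extent and timing of the restriction, the strain, sex and litters are not in the labels, which also do not say whether each library is a different pup, and p-values therefore reflect only how far these libraries scatter, which may be technical.

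The choroid plexus is a tuft of epithelium and vessels in each brain ventricle that secretes cerebrospinal fluid. Its epithelial cells make a large amount of transthyretin, take up folate and hormones from the blood, and move water and ions into the ventricle. Because the tissue is small and attached by a thin stalk, its RNA in a brain sample is commonly read as a sign of how much ventricular tissue the sample holds. In such bulk RNA, fewer choroid plexus cells and less RNA per cell cannot be told apart.

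Between 14030961 and 25734737 reads per library were assigned to genes, worked out from the deposited FPKM (reads scaled to exon length and to the library's assigned reads). Values listed by library run from replicate 1 to replicate 3. All libraries carry the same tissue label but differed in regional markers. The summed FPKM of 6 midbrain markers was 0.588 to 1.12 in control and 22.1 to 28.0 in CR, and that of 5 hindbrain markers was 0.279 to 0.306 and 9.66 to 24.3. For 6 dorsal telencephalic markers the sum was 325 to 449 in control and 122 to 201 in CR. These regional differences lie between the same libraries as the feeding groups, so regional content and maternal diet cannot be told apart in any result below.

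None of the 7 genes separated the groups. Of the 6 whose mean reached 0.5 FPKM, none passed an adjusted p of 0.05 in limma (Benjamini-Hochberg over 15247 tested genes), against 33.9% of all tested genes, and 0 of the 6 had an unadjusted p under that level. The same comparison with limma-voom on the worked-out reads called 1 of the 6, Enpp2, against 5779 of the 15247 tested genes. Prlr, with a mean of 0.208 FPKM, fell below the level for testing. In each of the 7 genes the 3 CR values overlapped the 3 control values, whereas 50.3% of all tested genes had groups that did not overlap and 26.1% had every CR value above every control value. The median log2 fold change (CR minus control, on log2 of FPKM + 1) of the 6 tested genes was 0.19, beside 0.01 for all tested genes. The sum of the 7 genes, nearly all of it Ttr, was 2782, 1656 and 1166 FPKM in the control libraries against 2190, 2765 and 2222 FPKM in the CR libraries.

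**Figure D1:**
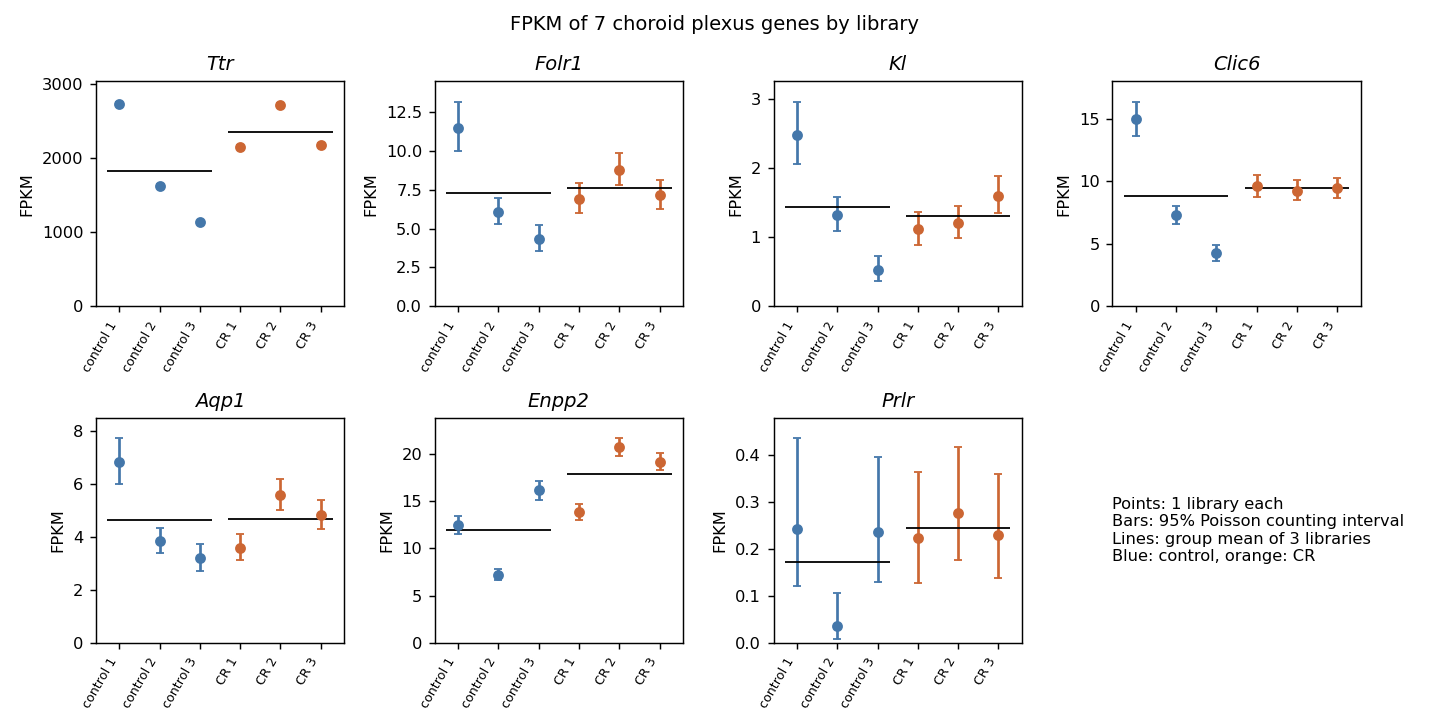
FPKM (vertical axes, from 0) of the 7 genes in each of the 6 libraries, with 95% Poisson counting intervals as bars and group means as lines. In Ttr, Folr1, Kl, Clic6 and Aqp1 control replicate 1 is the highest library and control replicate 3 the lowest, for example 14.97 and 4.24 FPKM in Clic6, with the CR libraries between them.

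Transthyretin, encoded by Ttr (ENSRNOG00000016275, mRatBN7.2 chromosome 18 from 11943789 to 11951008), is the secreted carrier of thyroxine and of retinol-binding protein and the most abundant product of the epithelium. Its level was 2734, 1630 and 1137 FPKM in the control libraries against 2155, 2719 and 2179 FPKM in the CR libraries, from 15047 to 50241 reads. Control replicate 1 lay with the highest CR library, and the other two control libraries lay below every CR library. The group means were 1834 ± 817 FPKM in control and 2351 ± 319 FPKM in CR (SD, n = 3 each), and the log2 fold change of 0.44 (SE 0.282) had a 95% interval of -0.21 to 1.1 and did not pass in limma (adjusted p = 0.260). That outcome rested on control replicate 1, since without it the log2 fold change was 0.78 and passed (limma adjusted p = 0.0198), while without control replicate 3 it was 0.15 (adjusted p = 0.636). Control replicate 1 had the fewest reads (14030961) and stood apart from the other controls in 4 thalamic markers, which summed to 3.23 FPKM there against 17.1 and 19.5 FPKM. The part of its tissue content in the Ttr values was not tested.

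Folr1 and Prlr encode receptors for ligands that circulate in blood. Folr1 (ENSRNOG00000019902, chromosome 1 from 156219460 to 156230667) encodes folate receptor alpha, which carries folate across the choroid plexus. It stood at 11.5, 6.08 and 4.33 FPKM in the control libraries against 6.91, 8.75 and 7.15 FPKM in the CR libraries. The order of the 6 libraries was that of Ttr. The means were 7.29 ± 3.73 and 7.61 ± 0.998 FPKM, and the log2 fold change of 0.14 (95% interval -0.51 to 0.79) did not pass (limma adjusted p = 0.728). Prlr (ENSRNOG00000057557, chromosome 2 from 59134588 to 59324718) encodes the prolactin receptor, which is strongly expressed in adult choroid plexus. It had 11, 3 and 14 reads in the control libraries against 16, 23 and 19 reads in the CR libraries. On the FPKM scale these were 0.243, 0.0367 and 0.236 against 0.224, 0.277 and 0.229. Only control replicate 2 stood apart, and its counting interval of 0.00757 to 0.107 FPKM lay below those of the other 5 libraries. With no filter on low values the log2 fold change of Prlr was 0.09 (95% interval -0.10 to 0.28, limma adjusted p = 0.489).

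Kl (ENSRNOG00000001092, chromosome 12 from 490399 to 530080) encodes klotho, a membrane and shed protein that is a co-receptor for the hormone FGF23. It was at 2.48, 1.32 and 0.523 FPKM in the control libraries against 1.11, 1.20 and 1.60 FPKM in the CR libraries, from 34 to 145 reads per library. Control replicate 1 was highest and control replicate 3 lowest, 4.75-fold apart, and their counting intervals (2.06 to 2.96 and 0.362 to 0.730 FPKM) did not meet. The means of 1.44 ± 0.986 and 1.30 ± 0.259 FPKM gave a log2 fold change of -0.01 (95% interval -0.65 to 0.63, limma adjusted p = 0.984). The sign of this value changed with the pseudocount, with limma-voom, and when control replicate 1 (0.29), CR replicate 1 (0.05) or CR replicate 2 (0.02) was left out.

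Clic6 and Aqp1 serve ion and water movement. Clic6 (ENSRNOG00000026870, chromosome 11 from 31737813 to 31780061) encodes a member of the chloride intracellular channel family. It was at 14.97, 7.28 and 4.24 FPKM in the control libraries against 9.62, 9.26 and 9.43 FPKM in the CR libraries. The control libraries were 3.53-fold apart and the CR libraries 1.04-fold. The log2 fold change of 0.24 (SE 0.344, 95% interval -0.56 to 1.04) did not pass (limma adjusted p = 0.624), and without control replicate 1 it was 0.66 and passed (limma adjusted p = 0.0357). Aqp1 (ENSRNOG00000011648, chromosome 4 from 84482512 to 84494690) encodes the water channel of the ventricle-facing membrane and is also made by red blood cells. It was at 6.84, 3.85 and 3.21 FPKM in the control libraries against 3.61, 5.6 and 4.84 FPKM in the CR libraries, with means of 4.63 ± 1.94 and 4.68 ± 1.00 FPKM. Its log2 fold change was 0.05 (95% interval -0.50 to 0.60, limma adjusted p = 0.889). The summed FPKM of 5 red blood cell markers was 861 to 1364 in control and 520 to 1058 in CR, and the highest was again control replicate 1. Of these 5 markers 1 was called lower and none higher, beside 16.2% and 17.7% of all tested genes, and 2 had log2 fold changes above 0. The globin gene Hba-a3 was the marker called (3.08 ± 0.972 and 1.44 ± 0.564 FPKM, limma adjusted p = 0.0340). The globin genes Hba-a2 and Hbb-bs did not pass (limma adjusted p = 0.137 and 0.413) but did as lower without CR replicate 1 (0.0329 and 0.0426). The part of red blood cells in the Aqp1 values was not tested.

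Enpp2 (ENSRNOG00000004089, chromosome 7 from 86202350 to 86324827) encodes autotaxin, a secreted enzyme that makes the signalling lipid lysophosphatidic acid and that oligodendrocytes also produce. Its control libraries were not ordered as those of Ttr, Folr1, Kl, Clic6 and Aqp1, and control replicate 2 was the lowest, as for Prlr. Its values were 12.5, 7.2 and 16.1 FPKM in the control libraries against 13.8, 20.7 and 19.2 FPKM in the CR libraries. Control replicate 3, the lowest library for Ttr, was the highest control library here, and 2 CR libraries lay above all controls. The means were 11.9 ± 4.49 and 17.9 ± 3.60 FPKM, with a log2 fold change of 0.59 (SE 0.262, 95% interval -0.02 to 1.20) that did not pass (limma adjusted p = 0.119). It passed without control replicate 3 (0.83, limma adjusted p = 0.0376) and with limma-voom (0.71, adjusted p = 0.0399). Markers of other cells moved in the same libraries. The summed FPKM of 10 oligodendrocyte markers was 43.1 to 56.2 in control and 61.9 to 73.3 in CR, with 4 of 8 tested markers called higher (17.7% of all tested genes were) and none lower. The myelin enzyme gene Cnp rose from 17.8 ± 1.7 to 22.0 ± 1.91 FPKM (limma adjusted p = 0.0363), and Cldn11, a tight junction gene of myelin, had a log2 fold change of 0.21 (limma adjusted p = 0.481) that was -0.037 without control replicate 2. Cnp no longer passed when control replicate 2 or 3 was left out (limma adjusted p = 0.0924 and 0.0845), or CR replicate 1 or 3 (0.0917 and 0.122). The 5 pineal markers summed to 0.294 to 0.519 FPKM in control against 0.838, 9.06 and 0.487 FPKM in the CR libraries, and Tph1, of melatonin synthesis, was at 2.1 FPKM in CR replicate 2 and at most 0.104 FPKM elsewhere. Gngt1, Crx and Aanat were also highest in CR replicate 2 (3.82, 2.03 and 0.933 FPKM), and Crx had no read in the other 5 libraries. Asmt, of the last step of melatonin synthesis, went the other way and was lowest in CR replicate 2 (0.174 FPKM, against 0.228 to 0.463 FPKM elsewhere). CR replicate 2 was also the highest library for Enpp2, whose log2 fold change without it was 0.48 (limma adjusted p = 0.292). The part of these cells in the Enpp2 values was not tested.

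The members varied widely among the controls. The SD of log2(FPKM + 1) over the control libraries was 0.47 to 0.81 for the 6 tested members, which placed each above 96.5% to 99.2% of all tested genes, where the median SD was 0.11. In CR the SD was 0.02 for Clic6, at the 7.56th percentile. The other tested members varied widely in CR too, with SDs of 0.16 to 0.29, from the 81.2nd percentile for Kl to the 94.1st for Enpp2. The median SD of all tested genes in CR was 0.08. The standard errors of the members were 0.237 to 0.344, against a median of 0.0948 over all tested genes. Their 95% intervals allowed CR to control folds of FPKM + 1 from as low as 0.638 (Kl) to as high as 2.3 (Enpp2), so the data do not show equal levels in the groups. With control replicate 3 left out, the log2 fold changes of Folr1 (-0.13), Clic6 (-0.14) and Aqp1 (-0.13) were below 0. That of Aqp1 was also below 0 without control replicate 2 (-0.03) or CR replicate 2 (-0.07). Aside from Ttr, which lay above 99.9% of tested genes by level, the tested members ranged from the 15.8th percentile for Kl to the 69.0th for Enpp2.

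Dividing each gene by Ttr in the same library shows whether the members kept their proportions as the total varied. These ratios and the correlations after them were chosen after the data were seen. Folr1 was at 4.2, 3.73 and 3.81 FPKM per 1000 FPKM of Ttr in the control libraries and at 3.21, 3.22 and 3.28 in the CR libraries. Its largest and smallest ratios were 1.31-fold apart, while its FPKM were 2.65-fold apart. The CR ratios lay below all control ratios, and so did those of Aqp1 (2.5, 2.36 and 2.82 against 1.68, 2.06 and 2.22), with p = 0.1 in each case by a two-sided exact permutation test, the smallest p that 3 against 3 libraries can give, and 0.3 after adjustment over 6 ratios. The ratios of Clic6 (3.73 to 5.48 in control and 3.41 to 4.47 in CR) and Kl (0.460 to 0.908 and 0.441 to 0.734) overlapped. Enpp2 was at 4.56, 4.42 and 14.2 FPKM per 1000 FPKM of Ttr in control replicates 1 to 3, with control replicate 3 far above the rest. The 3 Enpp2 ratios in CR were 6.42, 7.61 and 8.79.

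**Figure D2:**
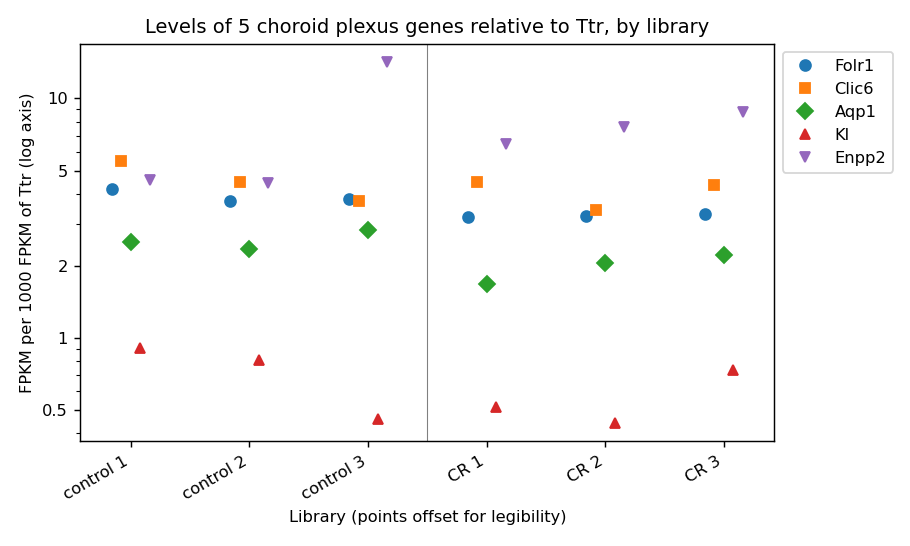
FPKM of 5 genes per 1000 FPKM of Ttr (vertical log axis) in each of the 6 libraries, 1 point per library. Folr1 stays between 3.21 and 4.2 in every library, while Enpp2 reaches 14.2 in control replicate 3.

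Over the 6 libraries, log2 levels of Folr1 and Ttr had a Pearson r of 0.94 (exact permutation p = 0.00417, 0.025 adjusted over 6 members) and a Spearman rho of 1.0 (exact permutation p = 0.00278, 0.0167 adjusted). For Clic6 r was 0.92 and rho 0.77 (exact permutation p = 0.0139 and 0.103, adjusted 0.0417 and 0.204), and for Aqp1 0.84 and 0.94 (0.0306 and 0.0167, adjusted 0.0611 and 0.050). Kl had r = 0.77 and rho = 0.71 (exact permutation p = 0.0736 and 0.136, adjusted 0.110 and 0.204). Enpp2 had r = 0.26 and rho = 0.20 (exact permutation p = 0.600 and 0.714, adjusted 0.600 and 0.714), and Prlr, at few reads, 0.37 and 0.60 (0.440 and 0.242, adjusted 0.528 and 0.290). Without control replicates 2 and 3, the libraries farthest from the median of Ttr, r over the other 4 was 0.88 for Folr1 and 0.86 for Aqp1 but 0.54 for Clic6 and 0.45 for Kl, so the last 2 relations rested on those libraries, and it was -0.02 for Enpp2 and 0.80 for Prlr. Within the 3 CR libraries, too few for a correlation, Folr1 had the order of Ttr. Clic6 had the opposite order and was lowest (9.26 FPKM) where Ttr was highest (2719 FPKM). The counting intervals of these CR values overlapped in Clic6 (8.77 to 10.5, 8.49 to 10.1 and 8.66 to 10.3 FPKM). Those of Folr1 overlapped too (5.98 to 7.95, 7.77 to 9.82 and 6.27 to 8.13 FPKM), so counting error alone could change either order.

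A wider set of 45 choroid plexus genes, of which 38 were tested, showed 9 genes higher in CR and none lower, against 17.7% of all tested genes called higher. Their median log2 fold change was 0.23. Without control replicate 1, 18 of them passed, and limma-voom called 15. The largest changes among them were in the transcription factor genes Otx2 and Lmx1a.

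**Figure D3:**
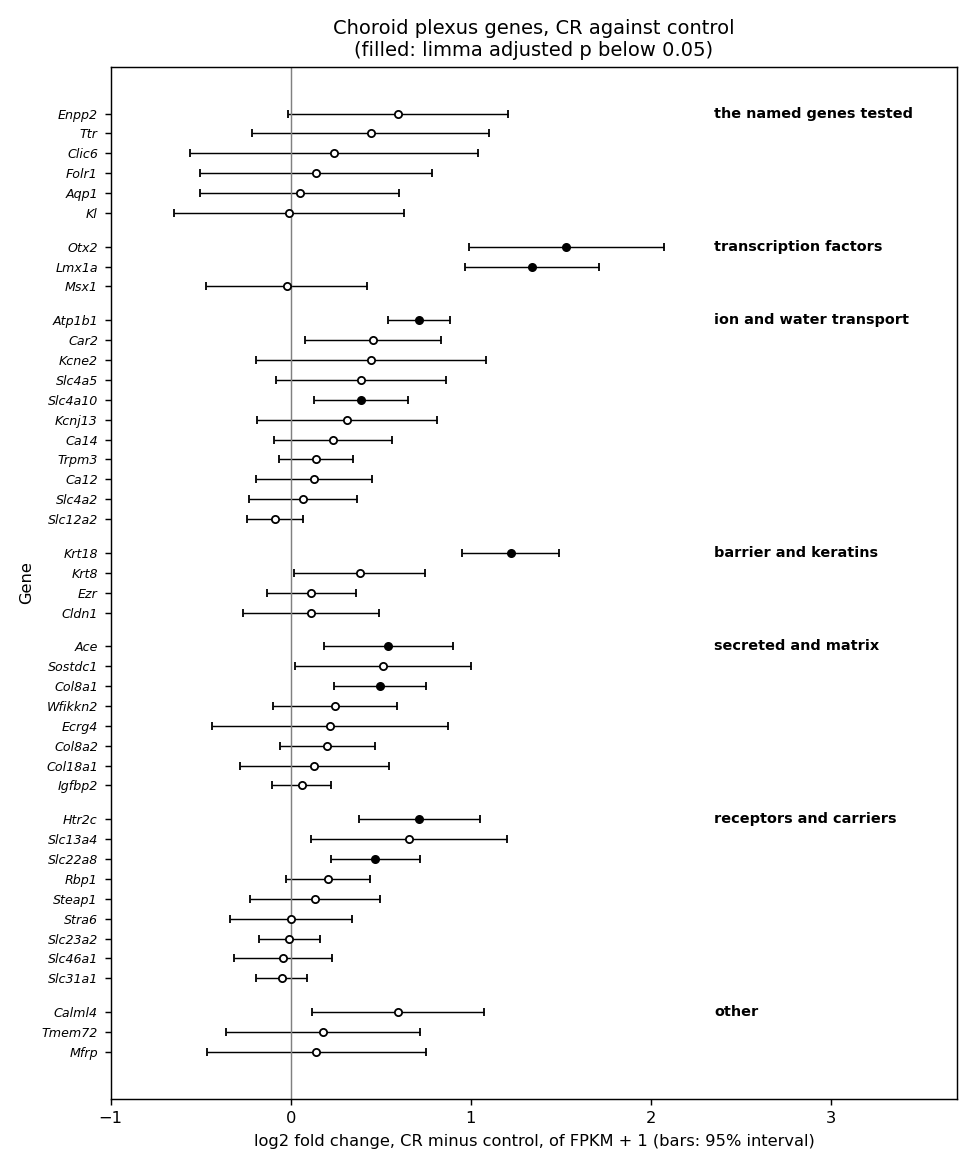
Log2 fold changes of FPKM + 1, CR minus control (horizontal axis), with 95% intervals for the 6 tested members and 38 further choroid plexus genes, grouped by role. Filled points mark an adjusted p below 0.05: none of the members is filled, and Otx2 at 1.53 and Lmx1a at 1.34 lie farthest to the right.

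Among the transcription factors 2 of 3 passed as higher, a small group beside the 17.7% of all tested genes. Otx2, which specifies choroid plexus epithelium and also marks the midbrain roof and the pineal gland, was at 3.85, 2.10 and 2.66 FPKM in the control libraries against 8.63, 14.4 and 7.96 FPKM in the CR libraries (log2 fold change 1.53, SE 0.233, limma adjusted p = 0.00306). Its highest value was in CR replicate 2, the library with the highest pineal sum, and without that library it was 1.29 (limma adjusted p = 0.00893). Lmx1a, a factor of the roof plate and of midbrain dopamine neurons, rose from 0.644 ± 0.358 to 3.10 ± 0.263 FPKM (1.34, limma adjusted p = 0.00141). The midbrain markers given above rose in the same libraries, among them the dopamine-synthesis gene Th from 0.485 ± 0.210 to 7.93 ± 1.20 FPKM, and their part in Otx2 and Lmx1a was not tested. Msx1, a homeobox gene of the roof plate, was at 4.0 ± 1.37 and 3.80 ± 0.314 FPKM (limma adjusted p = 0.942).

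The upstream sequences of the members were searched for the core motif of Otx2. The RefSeq promoter table (GRCr8) held windows for 4 of the 7 members. The OTX core TAATCC, on either strand, was in none of their 5 windows of 250 bases upstream of a start, and in 6.34% of all 33469 such windows. A missing motif says only that these letters are not in the window. With so rare a motif, finding none in 5 windows was likely in any case, so nothing about Otx2 follows from it. The windows of Aqp1 and Kl are shown with TATAAA in capitals, a sequence found on either strand in 12.9% of all windows.
Aqp1, chr4:85812534-85812783, plus strand: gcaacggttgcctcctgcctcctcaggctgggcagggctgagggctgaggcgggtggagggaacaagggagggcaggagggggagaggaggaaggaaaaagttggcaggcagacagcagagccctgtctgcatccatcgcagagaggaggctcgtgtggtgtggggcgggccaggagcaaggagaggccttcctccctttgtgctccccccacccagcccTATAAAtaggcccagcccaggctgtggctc
Kl, chr12:5325753-5326002, plus strand: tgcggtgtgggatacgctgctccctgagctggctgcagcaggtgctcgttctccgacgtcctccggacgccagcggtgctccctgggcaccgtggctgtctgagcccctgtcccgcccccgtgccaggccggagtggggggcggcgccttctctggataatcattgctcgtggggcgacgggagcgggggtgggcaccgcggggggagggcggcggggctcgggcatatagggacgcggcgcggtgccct
The Aqp1 window holds the TATAAA letters and the Kl window does not, and their G and C content is 65.2% and 73.2%.

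Of 11 tested genes of ion and water transport, 2 passed as higher and 9 did not pass, close to the 17.7% of all tested genes called higher. Atp1b1, a sodium pump subunit that neurons also express, rose from 116 ± 10.4 to 190 ± 11.9 FPKM (limma adjusted p = 0.000973), and the bicarbonate transporter gene Slc4a10, also neuronal, from 9.63 ± 1.48 to 12.8 ± 0.992 FPKM (limma adjusted p = 0.0317). Slc4a10 no longer passed when control replicate 2 (limma adjusted p = 0.0507), CR replicate 2 (0.0955) or CR replicate 3 (0.107) was left out. Kcne2, the potassium channel subunit gene whose end lies 208 kb from Clic6 on chromosome 11, was at 8.37, 4.97 and 2.89 FPKM in the control libraries against 7.19, 7.48 and 6.91 FPKM in the CR libraries, again with control replicate 1 highest and control replicate 3 lowest.

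In the barrier and keratin group 1 of 4 passed. Beside this and the next counts, all of small groups, 17.7% of all tested genes were called higher. The epithelial keratin Krt18 went up from 4.56 ± 0.785 to 11.9 ± 1.15 FPKM (1.22 on the log2 scale, limma adjusted p = 0.00067). Of 8 secreted and matrix genes 2 passed as higher, Ace from 2.33 ± 0.597 to 3.83 ± 0.613 FPKM (limma adjusted p = 0.0302) and Col8a1 from 0.388 ± 0.0452 to 0.958 ± 0.126 FPKM (limma adjusted p = 0.0121). Ace encodes angiotensin-converting enzyme and Col8a1 a short-chain collagen. Ace no longer passed when control replicate 2 or 3 was left out (limma adjusted p = 0.0839 and 0.0686), or CR replicate 2 or 3 (0.108 and 0.096). Of 9 receptor and carrier genes 2 passed as higher. Htr2c, the serotonin receptor gene of choroid plexus and many neurons, rose from 4.12 ± 0.960 to 7.31 ± 0.802 FPKM (limma adjusted p = 0.00881), and the organic anion transporter gene Slc22a8 from 1.99 ± 0.229 to 3.14 ± 0.322 FPKM (limma adjusted p = 0.0129), which no longer passed with CR replicate 3 left out (0.0519). In the group of other roles none of 3 passed, and Calml4 and Tmem72 were at 4.60 ± 1.34 and 1.40 ± 0.894 FPKM in control and at 7.44 ± 1.91 and 1.61 ± 0.162 FPKM in CR. Without control replicate 1 both passed (limma adjusted p = 0.0224 and 0.0284), and Tmem72 then had a log2 fold change of 0.47 in place of 0.18. Calml4 also passed without CR replicate 1 (0.0421), with limma-voom (0.0274) and with a mean of at least 2 FPKM (0.0449). The groups did not overlap in 11 of the 38 tested genes of the wider set, against 50.3% of all tested genes. Those 11 include the 9 called genes, which were picked by their calls.

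Cells that lie next to the choroid plexus were examined through lists of markers, which need not be exclusive to them. Whether choroid plexus cells share these markers, those of multiciliated cells above all, was not tested. Of 8 tested markers of ependymal and multiciliated cells, which line the ventricle, 6 were higher in CR, against 17.7% of all tested genes, and none was lower. Their summed FPKM was 24.3 to 40.4 in control and 48.1 to 61.8 in CR. The cilium gene Rsph1 rose from 7.89 ± 1.88 to 13.6 ± 1.32 FPKM (limma adjusted p = 0.00906). Dynlrb2, a dynein light chain gene, went from 7.36 ± 2.1 to 12.2 ± 2.84 FPKM (limma adjusted p = 0.0475), a call that ended when control replicate 2 or 3 (0.0956 and 0.0534) or CR replicate 2 or 3 (0.151 and 0.111) was left out. Of 8 meningeal fibroblast markers 1 was called higher and none lower, a share no larger than the 17.7% called higher among all tested genes. It was Slc6a13 (6.92 ± 3.24 and 14.9 ± 1.62 FPKM, limma adjusted p = 0.0269). All 8 had log2 fold changes above 0, as did 7843 of the 15247 tested genes, with medians of 0.41 and 0.01. The collagen genes Col1a1 and Col1a2 did not pass (limma adjusted p = 0.0819 and 0.116) but did without control replicate 3 (0.0182 and 0.0064) and with limma-voom (0.0268 and 0.0479). The meningeal sum was lowest in control replicate 2 (72.0, 43.5 and 90.2 FPKM in control replicates 1 to 3, and 89.8 to 109 FPKM in CR), the library in which Prlr had 3 reads. Of 6 endothelial markers none passed, with sums of 26.7 to 32.3 and 30.3 to 35.6 FPKM. Among them were the junction gene Esam (limma adjusted p = 0.347) and Emcn (0.311), which passed without control replicate 1 (0.0356). The order of the control libraries in the Ttr values had replicate 1 highest and replicate 3 lowest. It was seen in the sums of red blood cell and ventral telencephalic markers but not in the ependymal, meningeal or endothelial sums. The cerebellar sum had control replicates 2 and 3 nearly level (21.6, 20.5 and 20.4 FPKM in control replicates 1 to 3), so its order says little. In CR, of these sums only the ependymal one had the order of Ttr (48.1, 61.8 and 52.8 FPKM). The red blood cell sum in CR was 1058, 679 and 520 FPKM. The part of any of these tissues in the members' values was not tested.

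**Figure D4:**
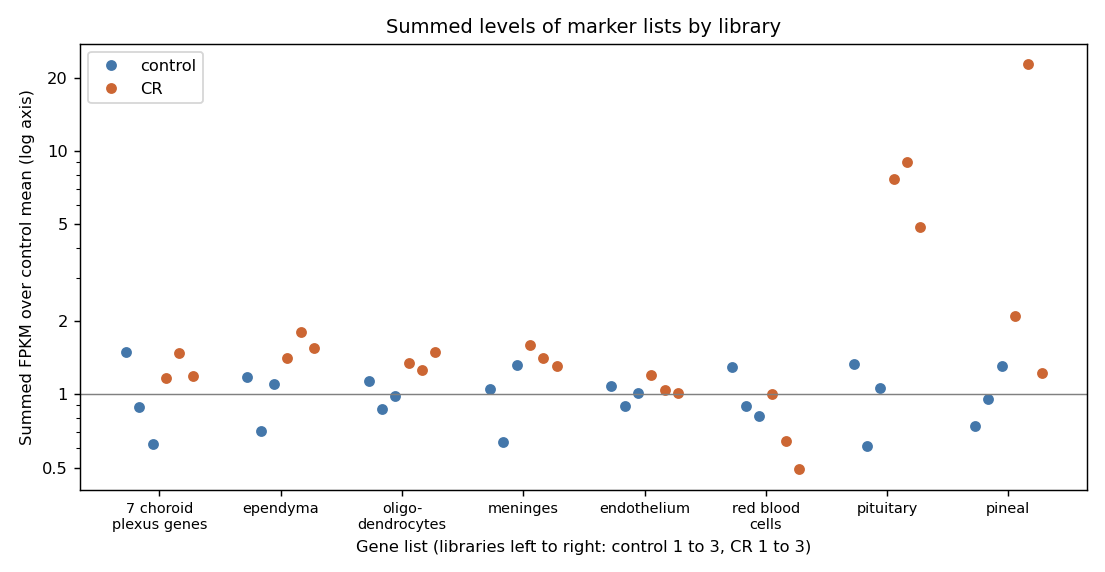
Summed FPKM of the 7 choroid plexus genes and of 7 marker lists in each library, divided by the control mean of the same list (vertical log axis). The choroid plexus sums of control and CR overlap, the ependymal and oligodendrocyte sums do not, and 1 CR library stands far above the rest in pineal markers.

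Partners of the members were then read from lists by pathway, against backgrounds of 17.7% called higher and 16.2% called lower. Of 6 tested genes tied to the hormones that transthyretin carries, none was higher and 4 were lower. The other 2 had log2 fold changes above 0 and did not pass. They were Rbp4, of retinol-binding protein (7.19 ± 1.39 and 9.40 ± 0.486 FPKM, limma adjusted p = 0.0642), and Dio3 (0.770 ± 0.472 and 1.27 ± 0.121 FPKM, 0.160). Dio2, the enzyme gene that activates thyroxine, fell from 2.59 ± 0.132 to 1.00 ± 0.182 FPKM (limma adjusted p = 0.00167), and the thyroxine transporter gene Slco1c1 fell from 22.5 ± 0.788 to 17.9 ± 0.310 FPKM (limma adjusted p = 0.00376). The receptor genes Thra and Thrb also fell, from 160 ± 2.45 to 128 ± 5.09 FPKM and from 1.69 ± 0.0207 to 1.06 ± 0.0532 FPKM. Thrb no longer passed when CR replicate 1 (limma adjusted p = 0.0519) or CR replicate 3 (0.0654) was left out. Of 10 genes of folate transport and use, 1 was higher and none was lower. It was the mitochondrial enzyme gene Mthfd1l (4.92 ± 0.146 and 6.07 ± 0.439 FPKM, limma adjusted p = 0.0398), whose call was lost without any 1 of the 6 libraries (adjusted p from 0.0519 to 0.152). Among 3 tested klotho partners, the growth factor receptor gene Fgfr3, which astrocytes and progenitors express, rose from 4.46 ± 0.417 to 7.86 ± 1.52 FPKM (limma adjusted p = 0.0063) and the others did not pass.

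For prolactin, 3 of 7 tested genes were higher and 2 were lower. The hormone gene Prl itself had no read in 5 libraries and 0.0745 FPKM in CR replicate 3. The transducer gene Stat5a rose from 0.275 ± 0.0397 to 0.892 ± 0.223 FPKM (limma adjusted p = 0.012) and the feedback inhibitor gene Socs2 from 5.38 ± 0.112 to 7.30 ± 0.738 FPKM (limma adjusted p = 0.0132). The kinase gene Jak2 fell from 13.1 ± 1.89 to 9.13 ± 0.0929 FPKM (limma adjusted p = 0.0096) and the inhibitor gene Cish from 2.61 ± 0.283 to 1.63 ± 0.104 FPKM (limma adjusted p = 0.0121). Socs2 no longer passed with CR replicate 2 left out (limma adjusted p = 0.0533).

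Of 7 tested receptors and phosphatases of lysophosphatidic acid, the product of autotaxin, the phosphatase genes Plpp3 (5.57 ± 0.460 and 9.62 ± 0.318 FPKM) and Plpp1 (2.04 ± 0.109 and 3.06 ± 0.0456 FPKM) were higher (limma adjusted p = 0.00112 and 0.00927) and none was lower. Both tested aquaporin genes other than Aqp1 rose. Aqp4, the water channel gene of astrocytes and ependyma, rose from 5.92 ± 1.62 to 14.7 ± 1.74 FPKM and Aqp11, an intracellular water channel gene, from 2.79 ± 0.321 to 6.07 ± 0.903 FPKM (limma adjusted p = 0.00237 and 0.00182). Of 3 tested relatives of Clic6, Clic4 fell from 29.2 ± 2.06 to 24.1 ± 0.588 FPKM (limma adjusted p = 0.0143), which no longer passed with CR replicate 2 (0.0548) or 3 (0.0534) left out, and the other two did not pass.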

How the data were processed

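Values are FPKM per Ensembl gene on mRatBN7.2, made and deposited by the authors with 1 table per library; the submitters' processing notes name STAR 2.7.10a, featureCounts 2.0.1, and the trimmers cutadapt 1.16, Trimmomatic 0.36 and Trim Galore 0.4.4, without order or settings. The library kit was stranded per the labels' protocols; how strand was treated in counting was not given in the sources used here. None of the 7 genes overlaps another listed gene on either strand. FPKM times exon length were whole multiples (within 0.05) of 1 step in 100% of values, which gave reads and depth. Intervals on reads are exact Poisson and cover counting error only. For scale, 3 reads in 1 kb of exon are 0.117 to 0.214 FPKM.

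Genes whose mean reached 0.5 FPKM were tested with limma 3.58.1 (R 4.3.3) on log2(FPKM + 1), with group as the only term and a trend on the mean, two-sided, at an adjusted p of 0.05 over all 15247 genes. The scale understates the change of low genes. The test was checked on simulated data in which every gene had the same set spread. That check does not cover genes as variable as the members were in control. The members and lists were chosen with earlier results of these data known. Of 202 listed symbols 190 were found, 2 through RefSeq synonyms; the others were not analysed here. The named genes were chosen as the 7 members, up to 4 called genes with the largest change per choroid plexus or pathway list (or 2 by p where none passed), the 3 genes most like each member, and the 2 most abundant markers of a cell type; for brain regions mostly sums are given. Crx, Aanat, Asmt, Msx1, Prl, Tshb, Gh1, Pou1f1, Hba-a3, Slc6a13, Rbp4 and Dio3 were named after their values were seen. The correlations, ratios to Ttr and promoter windows were also chosen after the data were seen. Alternatives were other pseudocounts, filters, scalings, moderation, a replicate block, limma-voom and leaving out each library.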

Additional observations from a re-analysis of the deposited data

How the results depend on the processing

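Leaving out 1 library lowered the count of all called genes from 5173 to between 3243 (without CR replicate 2; 3339 without CR replicate 3) and 5037. It gave 0 to 2 called members, and 6 to 18 wider choroid plexus genes in place of 9. With limma-voom 1 member and 15 wider genes were called, beside 5779 of all tested genes. Some signs turned. The log2 fold change of Kl was 0.077 and 0.017 with pseudocounts of 0.1 and 0.5 and 0.16 with limma-voom, and leaving out 1 library gave -0.31 to 0.29 for Kl, -0.13 to 0.48 for Folr1, -0.14 to 0.66 for Clic6, -0.13 to 0.32 for Aqp1 and -0.037 to 0.33 for the marker Cldn11. The cause of these changes was not tested. Of 95 alternative values for the 6 tested members 80 kept both direction and side of the threshold, as did 769 of 838 for 53 other named genes. The log2 ratio of the summed members was 0.36, and 0.26 without Ttr. It was 0.76 without control replicate 1 and 0.11 without control replicate 3. Same-numbered libraries had deviations correlated at 0.020 to 0.045, which is weak, yet each of the 6 libraries correlated best with its own number. Whether the numbers pair the libraries cannot be told from these values. With the replicate number as a block, calls changed among the genes named above whose alternatives were read. Ace (limma adjusted p = 0.0657), Thrb (0.052), Mthfd1l (0.0761), Cnp (0.0506) and Dynlrb2 (0.0833) no longer passed, and Hba-a2 (0.00661) and Hbb-bs (0.0461) passed as lower. With the replicate block 4445 genes were called, no member among them, and the log2 ratio of the summed members was 0.44. Depth limits Prlr above all, with 3 to 23 reads.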

Other observations

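Among 2857 tested genes (mean of 1 FPKM or more, SD of 0.25 or more on the log2 scale), the named genes whose levels over the 6 libraries were most like those of each member were compared by Pearson r, as a description. Kcne2, the potassium channel subunit gene described above, was among the 3 nearest to Ttr (r = 0.98) and to Clic6 (r = 0.95). Chrac1, a chromatin accessibility complex gene, was also near Ttr (r = 0.98). Mfrp was the nearest gene to Aqp1 (r = 0.97), at 9.03, 4.399 and 3.92 FPKM in the control libraries against 4.91, 6.82 and 6.75 FPKM in the CR libraries. Prr32 was near Kl (r = 0.97), and Pex11g, a peroxisome gene, near Folr1 (r = 0.97). For Enpp2 the nearest 3 were Pacsin1 (r = 0.99), Cfap77 (r = 0.98) and Otof (r = 0.98). For Prlr they were Fmo1 (r = 0.99), the meningeal matrix gene Lum (r = 0.97) and Ccdc80 (r = 0.97), and Lum stood at 1.67 FPKM in control replicate 2 and at 3.01 to 3.56 FPKM in the other 5 libraries. The remaining near genes carried clone names or were short RNA genes.

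Pituitary markers were higher in CR than in control in sum (0.448 to 0.972 FPKM in control and 3.56 to 6.59 FPKM in CR). The glycoprotein hormone gene Cga was at 3.57, 3.89 and 0.407 FPKM in CR replicates 1 to 3, with no read in 2 control libraries and 0.162 FPKM in the other, and Tshb at 1.21, 1.87 and 0.278 FPKM in CR, with no read in control. Lhb, the main part of the control sum, stood at 0.972, 0.387 and 0.486 FPKM in control and 0.673, 0.762 and 0.763 FPKM in CR (limma adjusted p = 0.579). Gh1 came mainly from CR replicate 3, with 42 reads there and at most 3 in any other library. Pou1f1, a factor of the anterior lobe, was at 0.063 FPKM or less in every library. The Cga call (limma adjusted p = 0.0272) was lost without control replicate 1 (0.0658) or 2 (0.0691) and without CR replicate 1 (0.0853) or 2 (0.0924). Ventral telencephalic markers summed to 85.4 to 114 FPKM in control and 56.2 to 64.0 FPKM in CR, and hypothalamic, thalamic and cerebellar markers were each higher in every CR library than in any control library by their sums (8.98-fold, 6.61-fold and 2.68-fold by means).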
